A study of Cucumis sativus with 33 samples.

Results

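The genes described here are 28 of the 23248 genes measured in opening corollas of female cucumber flowers. These genes had a mean transcript level that climbed at every sampled stage of a normal flower. They were chosen by their measured values, from the mean RPM (reads of a gene scaled to a fixed total per library) of 3 libraries in each of 6 groups. A member reached at least 10 RPM in the open normal flower (N5), was at least 1.5 times higher in N3 than in N1 and in N4 than in N3, and was more than 2 and at most 4 times higher in N5 than in N4. It was also at least 8 times higher in N5 than in N1 and, in flowers on super ovaries, at least 8 times higher in S9 than in S1. The levels in these 6 groups are therefore given as a description without a test, and tests are limited to the 5 super groups that the choice did not use (S3, S4, S5, S7 and S8).

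All plants were of the inbred line 6457, which sets fruit mostly without pollination, and its uppermost female flowers were bagged against pollination. Super ovaries came from plants with ample fertilizer and water that carried a single fruit close to the shoot tip. Normal ovaries came from plants short of fertilizer and water that carried 1 or 2 fruits set elsewhere. No group was untreated, and nutrition, water and fruit load changed together, so their parts cannot be told apart. Numbers in group names are days after labeling of the visible ovary. The super groups were S1 (green bud), S3, S4 and S5 (green yellow bud), S7 and S8 (yellow bud) and S9 (flowering), and the normal groups were N1 (green bud), N3 (green yellow bud), N4 (yellow bud) and N5 (flowering). There were 3 libraries in each of the 11 groups, every one made from a pool of 5 corollas.

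A corolla is the whorl of petals. As background, petals grow first mainly by cell division and then by cell expansion, and in cucumber they lose their green colour and turn yellow with carotenoids before they open. Neither the files nor the RefSeq gene table used here pairs the identifiers with gene names (0 of 23248 matched), so no function is given to any member, and markers of cell types or of RNA quality could not be read. The members are numbered 1 to 28 by falling mean RPM in N5. RPM is not corrected for gene length, so this order is one of read shares and not of transcript numbers. In pooled whole corollas, fewer cells of a type and less RNA per cell cannot be told apart.

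The spacing of the low values gave library totals between 16858670 and 24643178 reads, with 1 read worth 0.0406 to 0.0593 RPM. Pairs of replicates had a Pearson r across genes of at least 0.994 on the log2(RPM + 1) scale, except S7 replicate 3, which reached 0.978 and 0.986 with the other S7 libraries. Among the members this library was the lowest of the 3 S7 libraries in 19 and the highest in 4, with a median log2 difference of -0.29 from the mean of the other two. Counts and medians that rest on S7 are given below with and without it.

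In the super course the median level of the 28 members was 7.29 RPM in S1, 9.87 in S3, 12.5 in S4, 18.8 in S5, 37.2 in S7 (39.3 without S7 replicate 3), 70.3 in S8 and 109 in S9. In the normal course it was 6.29 RPM in N1, 16.9 in N3, 40.7 in N4 and 97.4 in N5. The members covered a wide range of levels, from 13.4 to 388 RPM in N5 and from 0.073 to 32.1 RPM in N1. The median ratio was 2.79 for N3 over N1, 2.26 for N4 over N3 and 2.51 for N5 over N4, so these medians were of similar size. The choice shaped this, as it set a lower limit for N3 over N1 and for N4 over N3. It also bounded N5 over N4 on both sides, so nothing is read from the similar size. The other large risers (defined below), which did not meet all these limits, had medians of 2.28, 1.26 and 8.75. Single members could have unequal steps, such as 13.4, 2.13 and 3.63 in member 3. Over the whole course the median ratio was 16.4 for S9 over S1 and 15.2 for N5 over N1. No ratio to N1 is given for member 27, because its N1 libraries held 0.05, 0.05 and 0.12 RPM, at or near the lowest recorded value.

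**Figure D1:**
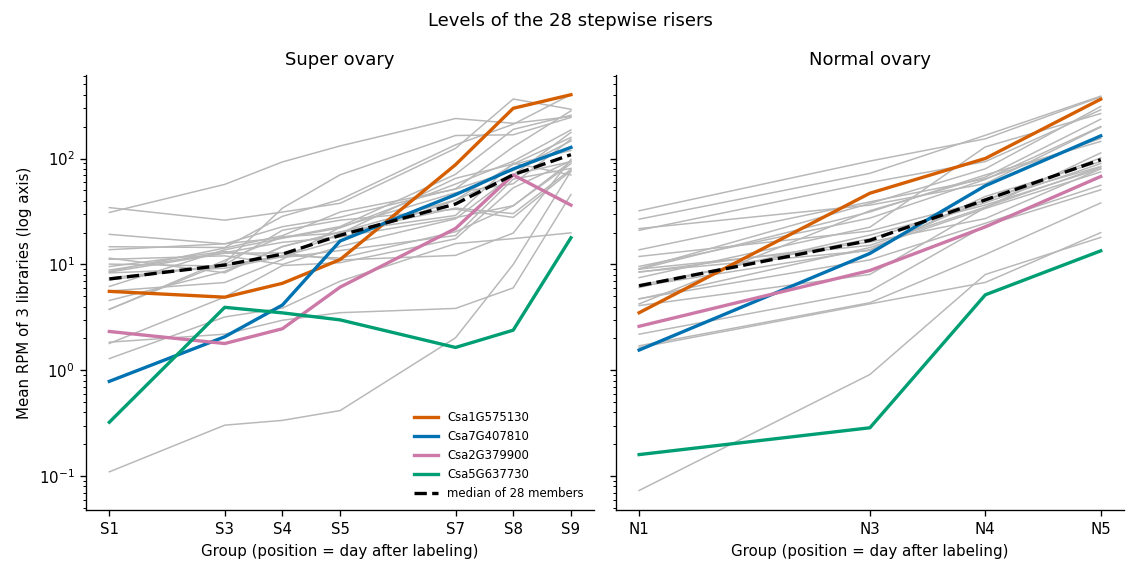
Mean RPM of 3 libraries (log axis) of each of the 28 members against day after labeling, for the super course (left) and the normal course (right). Grey lines are members, coloured lines the 4 genes named in the text and the dashed line the median, which stood at 109 RPM in S9 and 97.4 RPM in N5.

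Several limits of the choice lay close to members. The member nearest to the lower limit of the last normal step had an N5 over N4 ratio of 2.03, and the nearest gene outside had 1.98. At the upper limit these values were 3.88 and 4.03. For N3 over N1 they were 1.59 and 1.49, for N4 over N3 1.58 and 1.49, for N5 over N1 8.52 and 7.69, for S9 over S1 8.04 and 7.79, and for the level in N5 13.4 and 9.98 RPM. Genes that met every other limit numbered 94 where the N5 over N4 ratio was 2 or less and 21 where it was over 4. Of the 427 genes with the same overall rise in both courses and the same level in N5, the 28 members made up 6.56%, and the other 399 are called the other large risers below. Leaving out 1 of the 18 libraries used gave 27 to 32 genes, at least 25 of them among the 28, and 16 members met the rule in each of these 18 cases. Membership depended more on scaling, as rescaling by the median of gene ratios gave 39 genes, only 19 of them among the 28.

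Whether the members also climbed between the super days that the choice did not use was tested with limma on log2(RPM + 1). A gene was called at a Benjamini-Hochberg adjusted p under 0.05 over the 18905 genes tested and a change of at least 2-fold on that scale. All 28 members were among the genes tested, since a level of 10 RPM in N5 passes the filter of 1 RPM in any group. The choice required S9 to be at least 8 times S1 and so favoured a rise somewhere between these days, but it did not fix the days on which it came.

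From S3 to S8, which spans the green yellow bud to the late yellow bud, 26 of the 28 members were called higher and 0 lower. By comparison, 13.5% of all genes tested were called higher in S8 than in S3 and 30.8% lower. Counted without the 2-fold limit, 27 members were positive and 1 negative (member 28) at an adjusted p under 0.05. The share of all genes passing this looser limit was not counted, so nothing is read from that count. In the 6 single comparisons between these super groups 0 members were called lower by limma or by edgeR, and at an unadjusted p under 0.05 only member 28 was lower, in S8 against S3 and in S7 against S5. The median change of the members was 2.83 on the log2(RPM + 1) scale, against -0.39 over all genes tested, and it ran from -0.56 to 5.68. Libraries did not overlap in 28 members, with all S8 libraries above all S3 libraries in 27 (30% of all genes tested) and below them in 1 (55.9%). After rescaling by the median of gene ratios 26 members were still called higher, while the higher share of all calls was 41.4% in place of 30.4% and the median of all genes was -0.14 in place of -0.39. The other large risers changed by a median of 2.70, and 324 of 399 (81.2%) were called higher.

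Csa1G575130 (member 3) had the largest rise, also by the ratio of means (60.8). Its S8 libraries held 312, 310 and 272 RPM, against 5.85, 3.46 and 5.40 RPM in its S3 libraries. The S8 libraries were all far above the S3 libraries, and the log2 change was 5.68 (SE 0.35, adjusted p 2.5e-14). Between these days it stood at 5.49, 5.68 and 8.72 RPM in S4, 10.2, 14.3 and 8.79 RPM in S5, and 145, 89.9 and 27.4 RPM in S7. The S4 libraries overlapped those of S3, the S5 libraries lay above both, and most of the climb came after day 5. S7 replicate 3 was the lowest of the S7 libraries, and the step from S5 to S7 was 2.60 (SE 0.35, adjusted p 5.7e-07) with it and 3.28 (adjusted p 7.0e-11) without it. The call of this gene in S5 against S3 (1.03, SE 0.35, adjusted p 0.021) was lost without S3 replicate 2 (0.84, adjusted p 0.099) or S5 replicate 2 (0.85, adjusted p 0.099), with a pseudocount of 5 (0.70, adjusted p 0.068), after rescaling (0.97) and in a fit of S3, S4, S5, S7 and S8 only (1.03, adjusted p 0.076). In the remaining groups it held 7.53, 6.30 and 2.87 RPM in S1 and 384, 443 and 373 RPM in S9. In normal flowers it held 4.15, 3.49 and 2.85 RPM in N1, 54.7, 49.3 and 37.1 in N3, 77.9, 120 and 102 in N4, and 398, 318 and 374 in N5.

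Csa7G407810 (member 10) was second on the log2(RPM + 1) scale, within the error of member 22 (4.67, SE 0.16), whose ratio of means for S8 over S3 was 39.1 against 38.5 for member 10. It held 81.2, 81.4 and 76.7 RPM in S8, against 2.42, 1.87 and 1.93 RPM in S3, with no overlap and a log2 change of 4.72 (SE 0.16, adjusted p 8.0e-20). Its S4 libraries held 3.80, 3.38 and 5.22 RPM, its S5 libraries 18.5, 17.7 and 13.7 RPM and its S7 libraries 52.3, 43.5 and 41.0 RPM. Each of these groups lay wholly above the one before it. The step from S4 to S5 was called (1.79, SE 0.16, adjusted p 1.5e-07), as was the step from S5 to S7 (1.40, SE 0.16, adjusted p 4.3e-08, and 1.48 without S7 replicate 3). It held 0.86, 0.99 and 0.51 RPM in S1 and 131, 130 and 121 RPM in S9. The normal groups stood at 1.55 ± 0.24 RPM in N1, 12.7 ± 4.47 in N3, 55.3 ± 6.39 in N4 and 164 ± 5.03 in N5 (SD, n = 3 each).

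**Figure D2:**
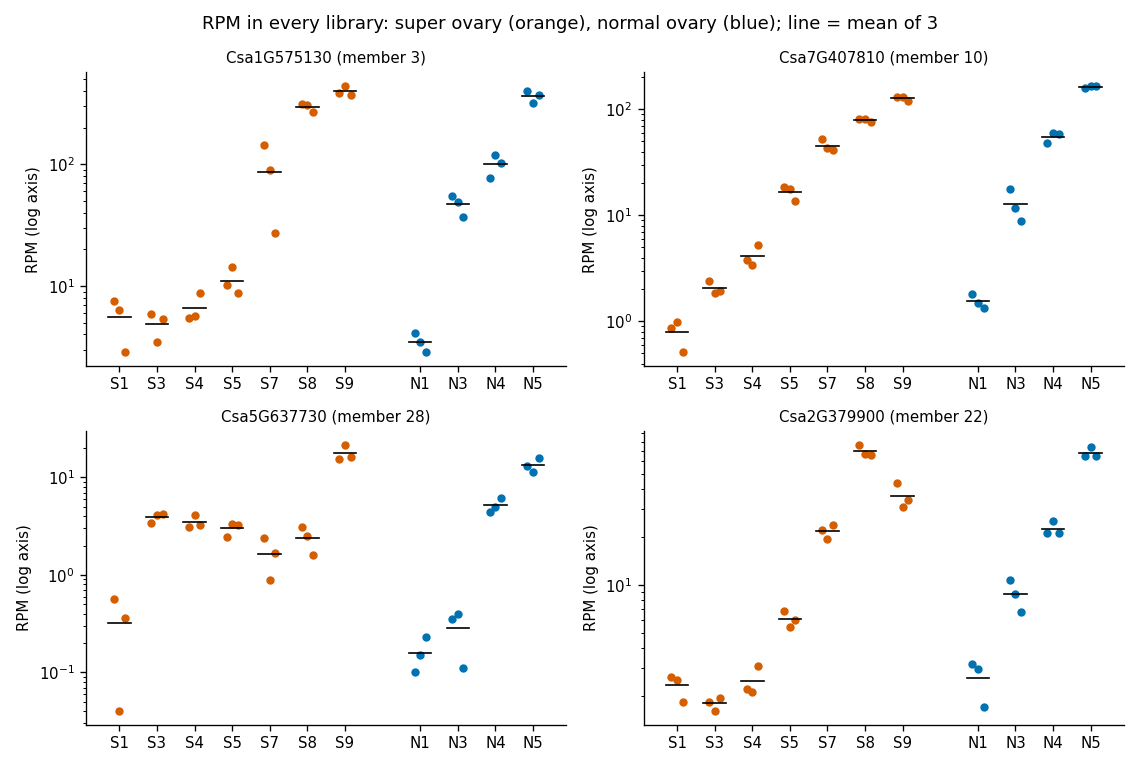
RPM (log axis) in every library of 4 members, with super groups in orange on the left of each panel, normal groups in blue on the right and a line at the mean of 3 libraries. Csa1G575130 and Csa7G407810 climbed from S3 to S8, Csa5G637730 stood lower in S8 (2.39 RPM) than in S3 (3.93 RPM), and Csa2G379900 stood lower in S9 (36.3 RPM) than in S8 (70 RPM).

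The members that were not called from S3 to S8 were 18 and 28. Member 18 held 21.5, 21.1 and 16.6 RPM in S8, against 10.7, 14.4 and 13.1 RPM in S3, a log2 difference of 0.59 (SE 0.14, adjusted p 2.8e-04) that stayed under 2-fold. It then stood at 98.2 ± 8.63 RPM in S9 (SD, n = 3). Csa5G637730 (member 28), named after its values were seen because it had the lowest change, held 3.07, 2.52 and 1.59 RPM in S8, against 3.43, 4.16 and 4.21 RPM in S3. Its S8 libraries all lay below its S3 libraries, and the difference was -0.56 (SE 0.19, adjusted p 0.0085), also under 2-fold. Its S1 libraries held 0.57, 0.04 and 0.36 RPM and its S9 libraries 15.6, 21.7 and 16.2 RPM, so that its levels from S3 to S8 lay between these groups without climbing. On day 3 it was the member with the highest ratio of super to normal, at 3.93 ± 0.44 RPM in S3 and 0.29 ± 0.16 RPM in N3 (SD, n = 3 each). That ratio rests on N3 libraries of 0.35, 0.40 and 0.11 RPM, a few reads each.

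Day by day within the green yellow bud the changes were small. In S4 against S3, 2 members were called higher (numbers 7 and 23), and 0 lower, where 0.825% of all genes tested were called higher and 0.973% lower, and the median change of the members was 0.34, against 0.02 over all genes. The number called in S4 against S3 was 1 without S3 replicate 2, S3 replicate 3 or S4 replicate 1, 1 with a pseudocount of 5 or after rescaling, and 5 by edgeR on recovered reads. In S5 against S4, 3 members were called higher (numbers 7, 10 and 22), where 0.936% of all genes were, with a median change of 0.38. The number called in S5 against S4 was 1 without S4 replicate 1 or S5 replicate 1 and 1 with a pseudocount of 5. All S4 libraries lay above all S3 libraries in 17 members (22.2% of all genes tested), and all S5 libraries above all S4 libraries in 16 (18.8%). Over both days together, in S5 against S3, 12 members were called higher and 0 lower, against 2.45% and 2.03% of all genes, and 6 were called with a pseudocount of 5. Their median change was 0.85, and all S5 libraries lay above all S3 libraries in 22 members (29.8% of all genes tested). Among the other large risers 100 of 399 (25.1%) were called higher in S5 than in S3, with a median change of 0.58.

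Member 7 had the largest change from S3 to S5 on the log2(RPM + 1) scale, although the ratio of means was 6.76 for it and 8.03 for member 10, whose levels were lower. Its S5 libraries held 76.8, 68.7 and 65.0 RPM, against 9.58, 10.1 and 11.5 RPM in S3, a log2 change of 2.64 (SE 0.15, adjusted p 1.2e-12). Its S4 libraries, at 31.4, 36.4 and 34.3 RPM, lay between those of S3 and S5 without overlap. It then levelled in the yellow bud, with 184, 150 and 169 RPM in S8, against 168, 177 and 149 RPM in S7, groups that overlapped.

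Into the yellow bud, in S7 against S5, 13 members were called higher and 0 lower, where 3.25% of all genes tested were called higher and 8.64% lower. The median change of the members was 0.93, against -0.19 over all genes. Without S7 replicate 3 the count was 12 and the median 0.94. Within the yellow bud, in S8 against S7, 11 members were called higher and 0 lower, against 5.58% and 9.13% of all genes. Their median change was 0.76, against -0.23 over all genes, and without S7 replicate 3 the count stayed at 11 and the median was 0.59. All S7 libraries lay above all S5 libraries in 22 members (15.6% of all genes tested) and below them in 1 (41.6%), and all S8 libraries lay above all S7 libraries in 21 (17.6%) and below them in 0 (45.3%). Without S7 replicate 3 these counts were 26 higher and 1 lower for S7 against S5, against 22.3% and 53.3% of all genes, and 22 higher and 2 lower for S8 against S7, against 22.7% and 48.8%. Rescaling moved the higher share of all calls to 46.7% in place of 27.4% for S7 against S5 and to 54% in place of 37.9% for S8 against S7, with 16 and 12 members called higher. The medians of all genes were then -0.03 and -0.09. For the other large risers the median change was 0.82 in S7 against S5, with 176 of 399 (44.1%) called higher, and 1.08 in S8 against S7, with 211 (52.9%) called higher. The difference between the gene groups was not tested.

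**Figure D3:**
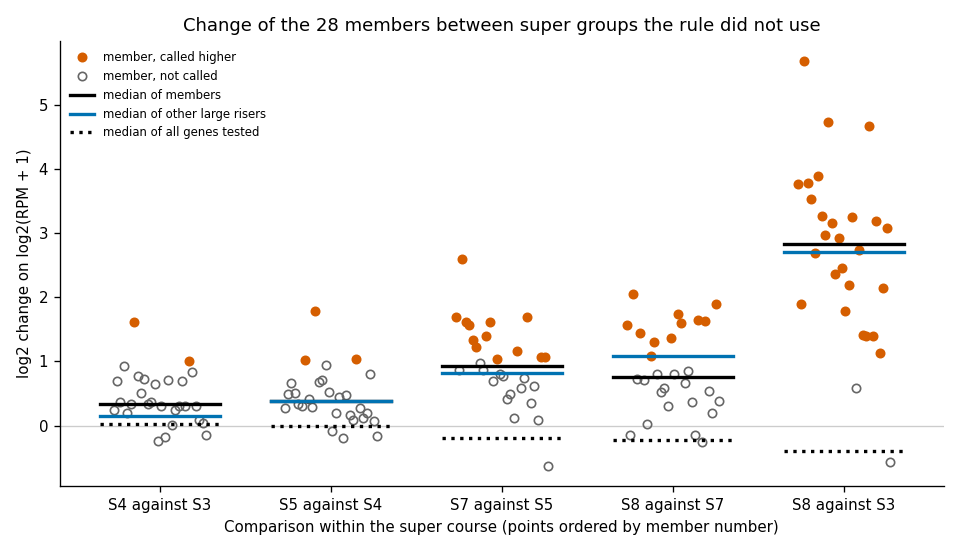
Log2 change on the log2(RPM + 1) scale of the 28 members in 5 comparisons between super groups that the choice did not use, each point a member and filled where called higher. Black, blue and dotted lines are the medians of the members, of the 399 other large risers and of all genes tested, which for S8 against S3 were 2.83, 2.70 and -0.39.

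Most members also climbed stepwise in the super course by their means, but few passed the test at several steps. Group means were higher at each of the 4 steps from S3 through S4, S5 and S7 to S8 in 20 of 28 members, against 9.53% of all genes tested and 156 of the 399 other large risers (39.1%). A ratio of at least 1.5 at each of S5 over S3, S7 over S5 and S8 over S7 was met by 9 of 28 members, against 1.86% of all genes and 124 of the other large risers (31.1%). Without S7 replicate 3, 19 members had higher means at each of the 4 steps, against 8.69% of all genes and 36.8% of the other large risers, and 7 met the ratio of 1.5, against 1.66% and 29.3%. The counts at a ratio of 1.5 were near the shares of the other large risers, so nothing particular to the members is read from them. Of the 4 consecutive steps, 0 members were called higher in all, 2 in 3 steps (numbers 7 and 22), 5 in 2 steps, 13 in 1 step and 8 in none. Without S7 replicate 3 the numbers were 0, 2, 6, 10 and 10. Steps called per gene were not counted over all genes or the other large risers, so these numbers describe the members only. The call of member 22 in S5 against S4 (1.04) was just past 2-fold and was lost without S4 replicate 1 (0.99), S4 replicate 2 (0.97) or S5 replicate 1 (0.96) and with a pseudocount of 5 (0.57). The largest of the 4 steps was S7 against S5, which spans 2 days, in 13 members and S8 against S7 in 11, with or without S7 replicate 3. Per day, the median log2 change was 0.34 from S3 to S4, 0.38 from S4 to S5, 0.46 from S5 to S7 and 0.76 from S7 to S8, and the last of these was the largest per day in 18 members. Without S7 replicate 3 the last 2 medians were 0.47 and 0.59, and S7 to S8 was the largest per day in 15 members. The largest step was not counted over all genes or the other large risers either, so nothing particular to the members is read from it.

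The 8 members without a steady climb fell into a few kinds. Mean levels were lower in S4 than in S3 in members 14, 16 and 28, lower in S5 than in S4 in members 15, 18 and 28, lower in S7 than in S5 in member 28, and lower in S8 than in S7 in members 2, 21 and 23, and also in member 7 without S7 replicate 3. Member 2 held 201, 205 and 240 RPM in S8, against 212, 252 and 252 RPM in S7, groups that overlapped (log2 difference -0.15, SE 0.08, adjusted p 0.12). The dip of member 28 in S7 was -0.63 (SE 0.19, adjusted p 0.0059, and -0.65 without S7 replicate 3), under 2-fold, and limma called 0 of these dips.

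Whether the 2-day step into the yellow bud was larger than the 2-day step before it was tested as a difference of steps, S7 against S5 minus S5 against S3, in which S5 enters both. The step was larger for members 1 and 5 (1.17, SE 0.24, adjusted p 0.001 for member 1) and smaller for members 7 and 10 (-1.42, SE 0.27, adjusted p 5.3e-04 for member 7). Among all genes tested, 1.49% were called higher and 6.64% lower, or 460 and 621 genes after rescaling in place of 281 and 1256. Member 1 held 147, 125 and 102 RPM in S7, against 39.1, 41.1 and 32.98 RPM in S5 and 25.1, 22.1 and 31.4 RPM in S3, so that most of its change by day 7 came after day 5. The count of members with a larger step was 0 without S5 replicate 3, 1 without S7 replicate 1 or S7 replicate 2, and 4 without S7 replicate 3, and that with a smaller step was 1 without S5 replicate 1. The median difference of 0.14 turned to -0.01 without S5 replicate 2, so no common direction was shown.

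Each member's own rise in log2(RPM + 1), with S1 set to 0% and S9 to 100%, placed the super days between these ends. The median position of the members was 11.4% in S3, 18.4% in S4, 30.8% in S5, 60.9% in S7 (64.6% without S7 replicate 3) and 80.3% in S8. The members were spread widely around it, from 4.58% to 69.1% in S5 and from 32.3% to 127% in S8. Members 2 and 7 were the furthest along in S5, at 69.1% and 68.7%, and members 18, 25 and 28 were the least far in S8, at 33.2%, 32.3% and 35.3%. The medians of the other large risers were 4.35%, 9.58%, 19.6%, 40.3% (45.3% without S7 replicate 3) and 73.2% on the same days. These positions use S1 and S9, which chose both sets of genes, and were not tested.

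**Figure D4:**
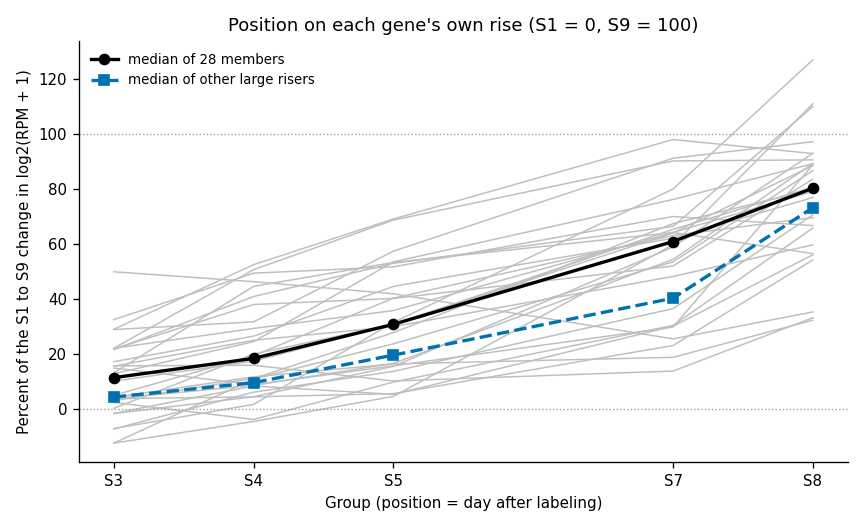
Position of each member (grey lines) on its own S1 to S9 change in log2(RPM + 1), in percent, against day after labeling. The black line is the median of the 28 members, at 30.8% in S5 and 60.9% in S7, and the blue dashed line that of the 399 other large risers, at 19.6% and 40.3%.

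Set beside the normal flowers, the members had median ratios near 1 at both ends and were mostly lower in super flowers of the same day in between. These ratios use normal groups that chose the members and were not tested. The median ratio was 0.96 for S1 over N1, 0.55 for S3 over N3, 0.31 for S4 over N4 and 0.14 for S5 over N5, and 1.05 for S9 over N5. The other large risers had medians of 0.94, 0.49, 0.51, 0.10 and 0.96, which were similar except for S4 over N4 (0.51 against 0.31). Single members differed at both ends. All S9 libraries lay above all N5 libraries in 4 members (19.7% of all genes tested) and below them in 8 (30.5%), with ratios from 0.54 to 4.22. All S1 libraries lay above all N1 libraries in 5 (15.4%) and below them in 4 (15%). The counts at both ends were near the shares over all genes tested, so nothing about the members is read from them. On day 5 all S5 libraries lay below all N5 libraries in 28 of 28 members (27.4% of all genes tested, and 97.7% of the other large risers, which were also chosen for a high N5), a day on which normal corollas had opened while those on super ovaries were green yellow buds. Matched by stage name, the median ratio was 0.94 for S5 over N3, 0.79 for S7 over N4 (0.88 without S7 replicate 3) and 1.55 for S8 over N4. For the other large risers these medians were 0.91, 1.28 (with S7 replicate 3) and 2.55. Member 27 had the highest ratio of S9 over N5, at 4.22, with 63.8, 66.1 and 97.8 RPM in S9, against 16.7, 17.4 and 19.8 RPM in N5, groups that did not overlap. In the yellow bud it held 9.98 ± 1.43 RPM in S8 and 8.04 ± 2.08 RPM in N4 (SD, n = 3 each), which overlapped.

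The last step into flowering varied widely among the members. The choice held N5 over N4 to ratios above 2 and up to 4, while S9 over S8 was free within the overall rise and ran from 0.52 to 7.61, with a median of 1.85. All S9 libraries lay above all S8 libraries in 23 members (40.6% of all genes tested, and 68.2% of the other large risers), below them in 3 (25.5% and 20.3%) and overlapping in the rest. As S9 was required to be high, nothing is read from these counts. The largest ratios belonged to members 25 (7.61), 27 (7.60) and 28 (7.45). Member 25 held 40.3, 58.2 and 38.5 RPM in S9, against 5.21, 6.77 and 6.02 RPM in S8, where in normal flowers it held 38.3, 37.3 and 38.6 RPM in N5, against 11.4, 10.8 and 14.9 RPM in N4. The lowest ratio was that of Csa2G379900 (member 22), named for it after its values were seen. It held 43.9, 30.9 and 34.1 RPM in S9, against 76.7, 67.2 and 66.1 RPM in S8, where in normal flowers it held 64.8, 73.5 and 64.7 RPM in N5, against 21.2, 25.4 and 21.2 RPM in N4. Before that the gene had climbed steeply, with a log2 change of 4.67 (SE 0.16, adjusted p 6.9e-20) in S8 against S3.

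**Figure D5:**
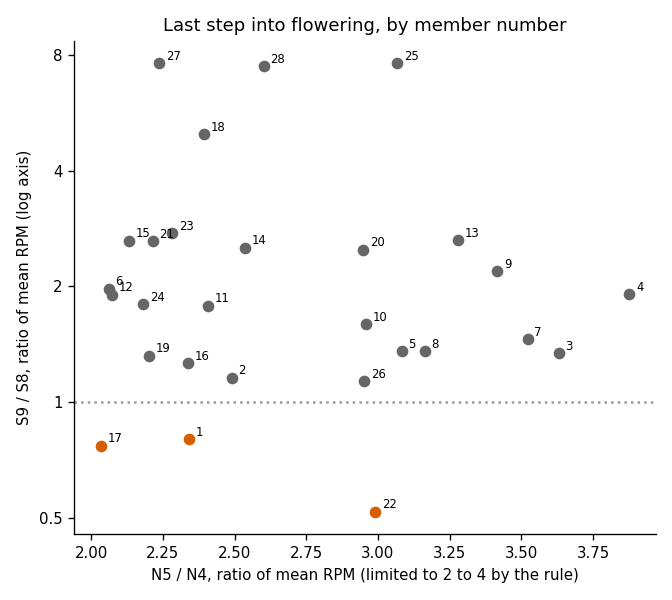
Ratio of mean RPM in S9 over S8 (vertical, log axis) against that in N5 over N4 (horizontal) for the 28 members, labelled by number. Members 1, 17 and 22 (orange) lie below a ratio of 1 on the vertical axis, at 0.80, 0.77 and 0.52.

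The members were spread over the identifier series. The number after the letters Csa was 1 in 4 members, 2 in 5, 3 in 3, 4 in 4, 5 in 3, 6 in 6 and 7 in 3. Over all genes of the table the share with the number 6 was 16.4% and with the number 3 it was 20.4%, against 21.4% and 10.7% of the members. The closest pair of members was 57 rows apart in the table, which lists genes by identifier, so none were neighbours there. No genome came with the files, so positions and sequences are not given.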

How the data were processed

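The authors deposited RPM values for 23248 genes in 33 libraries, 1 column each, with sums of 999976 to 1000019, and no column belonged to another sample. Tools named in the submitters' processing notes are TopHat and HTSeq, with no version, and no genome build is given in the sources used here. Groups came from the sample titles and stages from the series' design text, which calls the replicates biological. Whether pools came from separate plants is not given, so p-values cover only the variation among these pools.

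The 28 members, the tests and the rule for named genes (the 2 members with the largest called rise in S8 against S3 without overlap, and members called lower, of which there were none) were chosen with earlier results of these data known. Two-sided tests used limma 3.58.1 (R 4.3.3) with log2(RPM + 1) as the response, 1 model holding the 33 libraries and a mean for each of the 11 groups, and a trended prior variance. A gene entered if at least 1 group averaged 1 RPM, which 18905 genes did. Fold changes on this scale understate the change of low genes. The procedure was tested on simulated data in which only S8 changed and all genes shared the same extra variation between libraries. This setting is simpler than the data, so nothing about the calls given here is read from it. Lists of genes by function were planned for the case that identifiers had descriptions and could not be formed.

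Low values were whole multiples of a step in each column. Of the values under 100 RPM, 100% lay within 0.25 of a whole read in each of the 33 libraries. Reads were recovered in 30 libraries, and as no value was 0, 1 read was taken to have been added to each. The other 3 (N5 replicate 2, S1 replicate 2 and S4 replicate 2) did not pass a stricter test and were left out of edgeR 4.0.16, which called 9386 genes in S8 against S3. Replicate libraries differed by more than sampling noise (chi-square per degree of freedom 5.2 to 74.6). Alternatives were pseudocounts of 0.1 and 5, no filter, a filter at 5 RPM, rescaling libraries (median of gene ratios), a fit of S3, S4, S5, S7 and S8 only, a replicate block, leaving out each library, and edgeR's quasi-likelihood test on recovered reads.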

Additional observations from a re-analysis of the deposited data

Results flagged for a closer look

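Members 1, 17 and 22 were singled out because their last step went opposite ways in the ovary types. All S9 libraries lay below all S8 libraries while all N5 libraries lay above all N4 libraries, and the choice of members required a rise from N4 to N5. The first was also found in 25.5% of all genes tested and 20.3% of the other large risers, larger shares than among the members. Nothing about the members as a set is therefore read from this count. Their S9 over S8 ratios were 0.801, 0.771 and 0.519, and their N5 over N4 ratios were 2.34, 2.03 and 2.99. Member 1 stood at 292 ± 24 RPM in S9 and 364 ± 3.01 in S8, and at 388 ± 10.7 in N5 and 166 ± 3.72 in N4. Member 17 stood at 69.9 ± 9.08 RPM in S9 and 90.7 ± 13.4 in S8, and at 84.1 ± 4.62 in N5 and 41.4 ± 7.12 in N4. Member 22 stood at 36.3 ± 6.81 RPM in S9 and 70 ± 5.83 in S8, and at 67.6 ± 5.03 in N5 and 22.6 ± 2.44 in N4 (SD, n = 3 each). The difference between the steps was not tested, since S9, N4 and N5 chose the members.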

How the results depend on the processing

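The count of members called higher in S8 against S3 was 26 without each library in turn, 25 with a pseudocount of 5 and 27 by edgeR on recovered reads. With a pseudocount of 5 the members called higher were 1 in S4 against S3, 1 in S5 against S4 and 6 in S5 against S3, and 1 member had a smaller step in the difference of steps. All genes called then numbered 155, 70, 379, 1014 (S7 against S5), 1500 (S8 against S7) and 692 (difference of steps), in place of 340, 228, 846, 2248, 2780 and 1537. With a pseudocount of 0.1 they were 544, 481 and 1387, and by edgeR 522, 463 and 1469, in the 3 comparisons among S3, S4 and S5. In S4 against S3, rescaling gave 1 member and edgeR 5. In the difference of steps, rescaling gave 4 members with a larger and 1 with a smaller step. Without 1 library at a time, members called higher numbered 1 to 3 in S4 against S3, 1 to 4 in S5 against S4 and 0 to 4 in the difference of steps, with 1 to 3 lower. All genes called there ran from 1056 to 2599, and the median difference of the members from -0.01, a change of sign, to 0.29. The causes were not tested. The rule gave 39 genes after rescaling, 19 of them among the 28, and 30 with medians of the 3 libraries. Replicate numbers were not used to pair the samples in the main fit. To check this among S3, S4, S5, S7 and S8, the group mean of each gene was taken from its log2(RPM + 1). What remained correlated over 0.1 in 7 of 30 pairs of same-numbered libraries of different groups (median r 0.032). For libraries with different numbers it did so in 12 of 60 pairs (median r -0.035). Leaving out S7 replicate 3 from the no-overlap and stepwise counts was chosen after seeing the data. With a replicate block 26 members were called higher in S8 against S3. Low levels limit member 27, whose S3 libraries held 0.39, 0.32 and 0.20 RPM, a few reads each. They also limit member 28, with 0.10, 0.15 and 0.23 RPM in N1 and 0.35, 0.40 and 0.11 RPM in N3. These groups overlapped, so its rise from N1 to N3 held by the means only.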
